A study of Mus musculus with 18 samples.

Results

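RANKL, the cytokine that turns macrophages into bone-resorbing osteoclasts, was added for 3 days to mouse bone marrow-derived macrophages (BMDMs), and the transcriptome was compared with that of cells harvested before RANKL (day 0). The comparison used the 6 libraries labelled WT at these days, 3 per day, of the 18 libraries of the series, and was described over all 14241 genes that passed a filter on low counts, of 34745 in the table. Day 0 cells had received M-CSF, the growth factor that drives macrophage outgrowth from marrow, and no RANKL, while day 3 cells had received both. The series holds no library kept for the 3 days in M-CSF alone. Changes from RANKL and from longer culture therefore cannot be told apart here. The other 12 libraries were 3 labelled WT at day 1 and 9 labelled Zmat1 ko, 3 at each of days 0, 1 and 3. Animals labelled KO carried a global Zmat1 deletion on the C57BL/6 background and WT animals were their littermates. The labels did not say whether libraries of a group came from separate animals, so the p-values measured the spread between libraries, which may be technical.

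In background, RANKL binds its receptor RANK on the macrophage surface and signals through NF-kB, the AP-1 factors and calcium to NFATc1, the transcription factor that drives most osteoclast genes. Osteoclast precursors fuse into multinucleated cells, seal a patch of bone with a ring of actin-rich podosomes, acidify it with a vacuolar proton pump and digest its collagen with cathepsin K. The same cells give up much of the macrophage programme, including antigen presentation and the sensing of microbes.

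Total counts per library were 13860786 to 16548944 over the 6 libraries. Zmat1, the gene deleted in the KO animals, was at 2.31 to 6.41 CPM (counts scaled to a common library size, here by unadjusted totals) in the 9 libraries labelled WT and 3.38 to 6.74 in the 9 labelled KO, so its counts did not follow the labels. Levels are therefore given for libraries labelled WT, in the numbering of the labels. Day 0 libraries differed more from each other than day 3 libraries, with a median standard deviation of log2 level per gene of 0.304 against 0.170. Day 0 library 3 stood apart from day 0 libraries 1 and 2 along both leading axes of a principal component analysis of all 18 libraries, with coordinates of -27.8 and -34.8 against -116.7 and 39.5 and -85.7 and 45.0. On the second axis all other libraries labelled WT lay at 28.4 to 45.0 and those labelled KO at -62.2 to -1.2. Day 0 library 3 was thus the only library labelled WT on the side of the KO label. Why was not tested. The title of day 0 library 1 was written in another style than the other 5, whose meaning the labels did not give. No pair of libraries of a day agreed within sampling noise, with a chi-square per degree of freedom of 18.9 to 103.

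To place the expression changes beside sequence, promoters were taken from RefSeq on GRCm38.p6 as the 250 bases before each annotated start, 5′ to 3′ on the gene's strand. Promoters of Oscar and Rufy4, both among the 10 genes with the largest rise, are shown as examples. Capitals mark GGAAA, the core of an NFAT site, with CACGTG or CATGTG (E-boxes read by MITF and TFE factors) and TGACTCA or TGAGTCA (AP-1 sites), each searched on both strands. The Oscar promoter lies at chr7:3616158-3616407 on the minus strand and held 3 NFAT cores and 1 E-box. The Rufy4 promoter lies at chr1:74125291-74125540 on the plus strand and held 3 NFAT cores and 1 AP-1 site. Other osteoclast genes searched differed. The 3 Acp5 promoters held 4 NFAT cores and 1 E-box in all. The 2 Calcr promoters held 1 NFAT core, the Slc9b2 promoter held 1, and the Ctsk promoter held none of these motifs. No AP-1 site stood in any of these promoters of Acp5, Calcr, Slc9b2 and Ctsk.
Oscar: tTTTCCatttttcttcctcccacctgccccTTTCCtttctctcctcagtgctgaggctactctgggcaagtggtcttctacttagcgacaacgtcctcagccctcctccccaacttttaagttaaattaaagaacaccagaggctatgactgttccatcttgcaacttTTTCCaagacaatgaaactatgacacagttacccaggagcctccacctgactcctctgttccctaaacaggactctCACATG
Rufy4: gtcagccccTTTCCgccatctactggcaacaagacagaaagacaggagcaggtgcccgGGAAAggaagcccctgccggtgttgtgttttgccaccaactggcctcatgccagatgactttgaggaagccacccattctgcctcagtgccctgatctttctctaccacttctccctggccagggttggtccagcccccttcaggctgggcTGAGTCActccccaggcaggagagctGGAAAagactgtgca

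Promoters of Isg15 and Ifit3 are shown as members of the interferon response list, in which 50 of 52 genes fell. Here capitals mark GAAANNGAAA, the core of an interferon-stimulated response element (ISRE), on either strand. This motif was added after the expression values were seen and can overlap GGAAA. The Isg15 promoter lies at chr4:156200819-156201068 on the minus strand and held 3 overlapping cores, and the Ifit3 promoter lies at chr19:34583279-34583528 on the plus strand and held 2. Among other interferon-induced genes searched, the Ifit1 promoter held 2, the Rsad2 promoter 1 and the 2 Ifit2 promoters none.
Isg15: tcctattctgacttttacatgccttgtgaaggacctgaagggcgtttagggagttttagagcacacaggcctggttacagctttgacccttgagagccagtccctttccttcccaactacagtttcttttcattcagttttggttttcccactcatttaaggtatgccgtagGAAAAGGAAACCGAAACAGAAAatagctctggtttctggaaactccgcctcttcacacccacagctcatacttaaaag
Ifit3: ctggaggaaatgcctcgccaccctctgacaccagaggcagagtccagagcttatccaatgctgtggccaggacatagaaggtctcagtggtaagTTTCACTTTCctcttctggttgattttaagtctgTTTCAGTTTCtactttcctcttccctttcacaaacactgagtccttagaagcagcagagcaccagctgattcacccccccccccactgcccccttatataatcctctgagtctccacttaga

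Over the 13181 promoters of the 10316 tested genes with a RefSeq match, an ISRE core stood in 2.73%, against 44.9% of the 49 promoters of the 40 interferon response genes that matched. Among genes that fell at least 2-fold it stood in 5.99% of promoters, and among genes that rose at least 2-fold in 1.60%. AP-1 sites stood in 3.44% of all promoters, 4.71% of those of genes that rose at least 2-fold and 4.52% of those of genes that fell at least 2-fold. NFAT cores, which a short motif gives often, stood in 54.2%, 50.7% and 57.5%. E-boxes stood in 15.2% of all promoters, 14.4% of those of genes that rose at least 2-fold and 16.8% of those that fell so far. They stood in 40.9% of the 22 promoters of the lysosomal membrane list and in 50% of the 12 promoters of the cathepsin list. In the list of other lysosomal hydrolases the share was 21.4% of 28 promoters. These shares describe letters in a window and were not tested.

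From here on CPM levels use library totals adjusted by the trimmed mean of M-values. In edgeR's quasi-likelihood test 7143 of 14241 genes passed a Benjamini-Hochberg adjusted p of 0.05, which is 50.2% of genes tested. Of these, 3370 rose (23.7% of genes tested) and 3773 fell (26.5%). A fold of at least 2 was reached by 2039 genes that rose (14.3%) and 2004 that fell (14.1%). The libraries of the days did not overlap for 8894 genes (62.5%). The log2 fold change of day 3 over day 0 had a median of -0.03 over all genes, 1.27 over genes that rose and -1.06 over genes that fell. The balance of rises and falls depended on the scaling: with total counts in place of trimmed means, which moved the median of all genes by 0.362 on the log2 scale, 5153 genes rose and 2221 fell, so that rises made up 69.9% of the calls in place of 47.2%. Changes below are relative to the trimmed-mean scaling.

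Expression became less concentrated in a few genes. The 10 genes with the most counts held 13.5% to 18.8% of the counts of a day 0 library and 6.71% to 7.98% of a day 3 library. At day 0 the leading genes included the lysosomal and iron storage products of macrophages. Per length, the mean level of Lyz2, which encodes lysozyme, went from 24413 to 5945 FPKM (fragments scaled to exon length and library depth), that of the ferritin heavy chain gene Fth1 from 10954 to 5122, and that of Psap, the precursor of lysosomal saposins, from 6902 to 2196. At day 3 the osteoclast enzymes had joined the top: mean FPKM was 3716 for Ctsk, 3116 for Acp5 and 2429 for Mmp9, from 11.4, 24.4 and 28.8 at day 0.

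**Figure D1:**
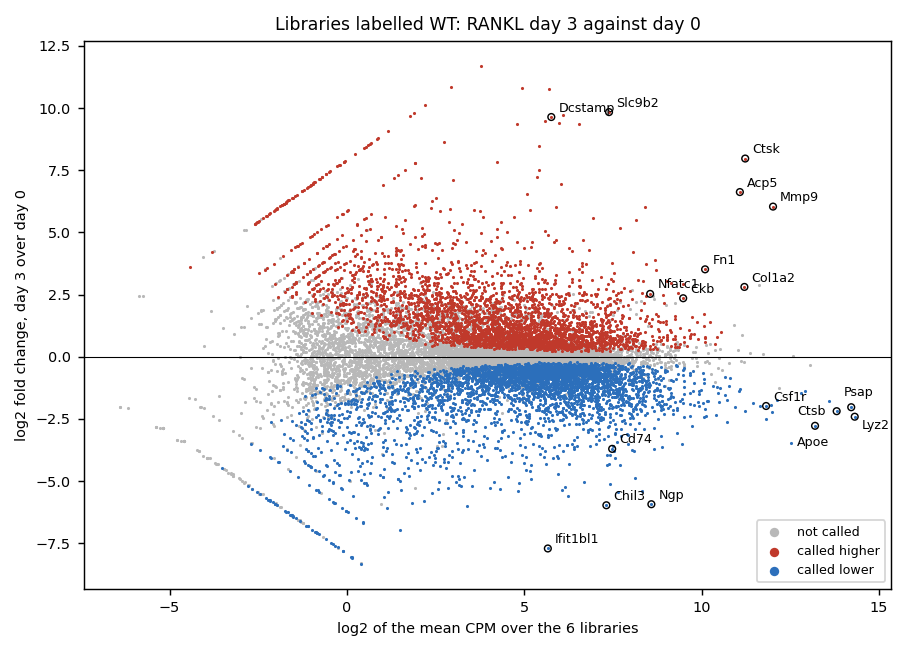
Each point is a tested gene, with its mean level over the 6 libraries labelled WT (log2 CPM, horizontal) and its log2 fold change of day 3 over day 0 (vertical). Colours mark the 3370 genes that rose and the 3773 that fell; the straight edges at the left are genes with no count on 1 of the days.

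The genes with the largest rises were osteoclast genes that started at or near 0. Calcr, the calcitonin receptor (chromosome 6, 3685680 to 3764714, GRCm38), had no count in any day 0 library and stood at 13.4, 15.1 and 17.0 CPM at day 3. Nyap2, an adaptor of phosphoinositide 3-kinase signalling, likewise went from 0 in all 3 libraries to 20.5, 24.7 and 37.6 CPM. Against a floor of 3 counts per day 0 library these were rises of at least 65.6-fold and 119-fold. Oscar, a costimulatory receptor of osteoclasts, had 0, 0.0774 and 0 CPM at day 0 and 87.6, 45.3 and 51.5 at day 3, at least 266-fold higher. The same bound was 241-fold for Siglec15, a sialic acid receptor of osteoclast precursors, 445-fold for the actin-severing protein gene Scin and 591-fold for the cytochrome P450 gene Cyp2s1. Of the genes that rose, 188 had at most 3 counts in every day 0 library. In the other direction, 138 genes that fell had at most 3 counts in every day 3 library.

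Among the 62 lists other than markers of other cells, bone resorption had the highest median. Of 16 genes for resorbing enzymes, acid secretion and the ruffled border, 9 rose and 3 fell, with a median log2 fold change of 2.05, against -0.03 over all genes. The rank depended on the libraries. Without day 0 library 3 the median was 1.97, below YAP1 targets (3.06), guidance genes (2.57), mitosis (2.205) and creatine genes (2.14). YAP1 targets were also above it with the library number as a replicate block (2.57 against 2.09) and without day 3 library 3 (2.02 against 1.94). Ctsk, the collagen-digesting cathepsin K (chromosome 3, 95499256 to 95509362), was at 25.6, 7.20 and 24.4 CPM at day 0 and 3974, 4436 and 5918 at day 3. Every day 3 library lay above every day 0 library, and the log2 fold change was 7.97 ± 0.57 (SE, n = 3 per day, adjusted p = 1.312e-06). Acp5, the tartrate-resistant acid phosphatase (chromosome 9, 22126731 to 22135746), was at 54.6, 24.0 and 51.6 CPM before RANKL and 4158, 4099.8 and 4573 after, 6.62 ± 0.44 higher as a log2 fold change (adjusted p = 1.135e-06). Mmp9, a gelatinase (chromosome 2, 164940780 to 164955850), went from 112, 61.5 and 198 CPM to 6079, 7617 and 10711, again without overlap (6.04 ± 0.77, adjusted p = 4.107e-05). Slc9b2, a sodium-proton exchanger of osteoclasts, went from 0.247, 0.310 and 0.500 CPM to 322, 290.1 and 391 (9.84 ± 0.88). Car2, the carbonic anhydrase that supplies protons, rose from 0.495, 0.464 and 1.14 CPM to 50.4, 58.7 and 90.6 (6.53 ± 0.58).

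Not all of the acid machinery moved that far. Clcn7, the lysosomal chloride-proton exchanger, was at 317 to 424 CPM at day 0 and 425 to 504 at day 3 (log2 fold change 0.32, adjusted p = 0.1741), and the pump subunit gene Tcirg1 was at 998 to 1358 and 972 to 1144 CPM (-0.19, adjusted p = 0.3737). Of 18 vacuolar proton pump subunits, 10 rose and 1 fell, with a median of 0.80. Atp6v1b2 went from 611, 427 and 512 CPM to 1262, 1231 and 1612 (1.41 ± 0.27) and the catalytic subunit gene Atp6v1a rose by 0.77. Atp6v0a1, a membrane subunit of other tissues as well, fell by 1.24 on the log2 scale. Atp6v0d2, the subunit tied to osteoclast fusion, stood at 330.0, 11.5 and 62.6 CPM in the day 0 libraries and 652, 579 and 797 at day 3. Its day 0 values spread widely, with library 1 the highest and library 2 the lowest, and the log2 fold change of 2.33 ± 1.19 missed the threshold (adjusted p = 0.1148). The 3 genes of the resorption list that fell act in vesicle traffic at the ruffled border, with log2 fold changes of -2.83 for Rab27a, -1.16 for Rab3d and -0.68 for Plekhm1.

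**Figure D2:**
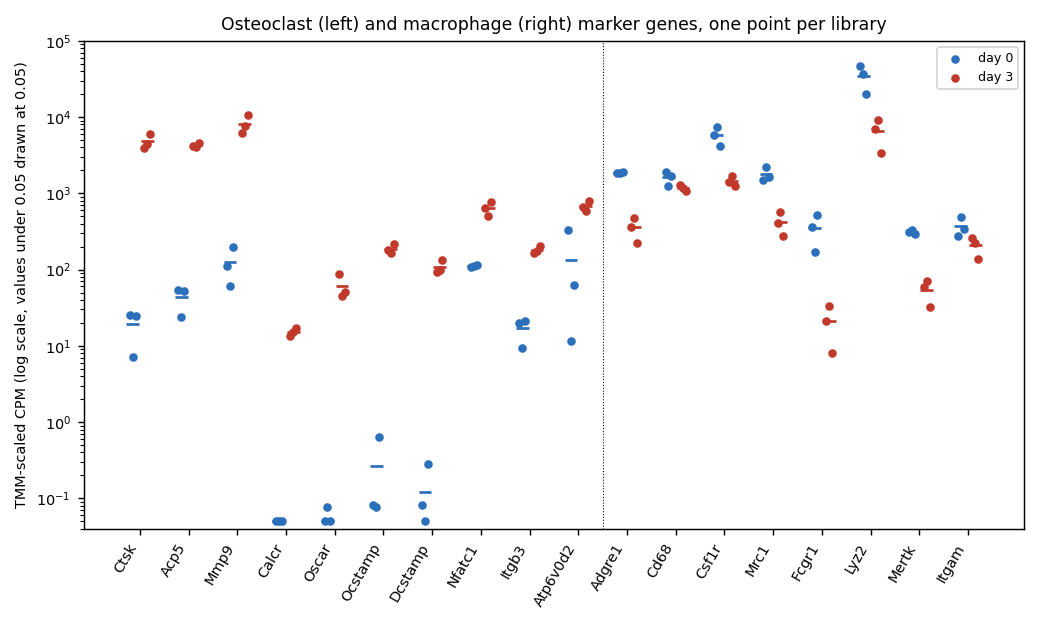
Levels of 10 osteoclast and 8 macrophage marker genes in each library labelled WT (CPM, log axis; values under 0.05 are drawn at 0.05), with a bar at the mean of each day. The day 3 points of Ctsk, Acp5, Mmp9, Calcr, Oscar, Ocstamp and Dcstamp all lie above their day 0 points, while the day 0 points of Atp6v0d2 range from 11.5 to 330.0 CPM.

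Of 14 cell fusion genes, 6 rose and 2 fell, with a median of 1.05. Dcstamp and Ocstamp, membrane proteins required for osteoclast fusion, started near 0. Dcstamp was at 0.0824, 0 and 0.286 CPM before RANKL and 93.7, 99.4 and 132 after (9.64 ± 0.95). Ocstamp was at 0.0824, 0.0774 and 0.644 CPM and then at 180.4, 165 and 214 (9.34 ± 1.09). Without day 0 library 3, which had the most reads of both, the values were 11.16 and 11.07. Myo10, a motor protein of filopodia and nanotubes, rose by 2.51 (3.12 without day 0 library 3), while Cd47, a surface ligand that takes part in macrophage fusion, went down from 149 to 266 CPM at day 0 to 97.3 to 104 at day 3 (-1.12 ± 0.19).

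Among 24 transcription factors that drive osteoclast formation, 9 rose and 4 fell. Nfatc1, the master factor, stood at 107, 111 and 114 CPM at day 0 and 639, 509 and 766 at day 3 (2.53 ± 0.20, adjusted p = 2.16e-06). The AP-1 members Fos and Fosl2 rose by 2.53 and 3.72 (3.23 for Fos without day 0 library 2). Fos was at 25.4, 54.4 and 13.8 CPM before and 199.6, 163 and 179 after. Ppargc1b, a coactivator of mitochondrial biogenesis in osteoclasts, went from 2.89, 4.18 and 1.93 CPM to 41.5, 34.05 and 51.3 (3.82 ± 0.34), and Prdm1, the repressor of anti-osteoclast genes also called Blimp1, rose by 1.63. The lineage factors Spi1 (PU.1) and Mitf did not pass, with log2 fold changes of 0.05 ± 0.17 each (adjusted p = 0.8279 and 0.811). The MITF relatives Tfeb and Tfe3, which drive lysosomal genes, fell by 1.40 and 1.18.

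Factors that repress osteoclast formation moved the other way: of 19, 11 fell and 2 rose, with a median of -0.72. Irf8, which keeps cells in the macrophage lineage, was at 433, 357 and 356 CPM at day 0 and 72.7, 89.2 and 32.7 at day 3 (-2.56 ± 0.37, adjusted p = 9.502e-05). The macrophage factor gene Maf fell by 2.09 and Irf4 by 3.48. The list's 2 rises were Hes1 and Klf4, by 3.20 and 1.65, with Hes1 at 4.26 without day 0 library 3.

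The receptors of both cytokines moved in opposite directions. Tnfrsf11a, which encodes RANK, rose from 45.3, 44.3 and 53.6 CPM to 153, 131 and 172 (1.67 ± 0.31, adjusted p = 0.000541). Csf1r, the M-CSF receptor, fell from 5830.2, 7289 and 4139.6 CPM to 1426, 1698 and 1256 (-1.98 ± 0.26, adjusted p = 5.44e-05). Among the 27 genes of RANK and M-CSF signalling 6 rose and 7 fell, shares close to those of all genes, and the number that rose was 3 without day 3 library 1, 13 with total counts and 10 with DESeq2. The NF-kB feedback gene Nfkbia rose by 1.60, and Mapk14, which encodes p38 alpha, fell by 1.56. Csf1, the ligand, was at 21.4, 46.2 and 199 CPM at day 0 and 225, 326 and 201 at day 3 (1.49 ± 0.66, adjusted p = 0.0715).

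ITAM adaptors and their receptors, which costimulate calcium signals, mostly fell, 13 of 22 against 3 that rose (median -0.92). The 3 that rose were Oscar, Siglec15 and Pira2, an immunoglobulin-like receptor with close paralogs. Tyrobp, the adaptor DAP12, went from 928, 1022 and 712 CPM to 285, 302 and 287 (-1.61 ± 0.22), and Fcer1g, the Fc receptor gamma chain, from 974, 793 and 887 to 233, 247 and 189.9 (-1.99 ± 0.29). Trem2, a receptor that pairs with DAP12, fell by 1.78. Calcium and calcineurin genes split evenly, with 10 of 28 higher and 10 lower. The plasma membrane calcium pump gene Atp2b4 rose by 5.04, the calcium release channel gene Itpr3 by 2.83 and the calcineurin regulator gene Rcan1 by 1.96, while the calcium channel gene Trpv4 fell by 2.44 and the pump genes Atp2a3 and Atp2b1 by 2.23 and 1.52.

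Genes of attachment and of the resorbing cytoskeleton moved in both directions. Of 22 integrins, 10 rose and 6 fell. The counts were 8 and 4 when only the compared libraries were fitted. They were 5 and 2 when the library number was added to that fit as a replicate block. The subunits of the vitronectin receptor rose: Itgb3 from 20.1, 9.44 and 21.5 CPM to 163, 176 and 201 (3.40 ± 0.45) and Itgav from 21.9, 44.4 and 48.7 to 297, 256 and 321 (2.93 ± 0.27). The collagen receptor chain gene Itga2 rose by 5.61 (9.22 without day 0 library 3). The leukocyte integrin chain gene Itgal fell from 53.0, 70.7 and 31.1 CPM to 8.36, 11.9 and 4.82 (-2.62 ± 0.48), while its partner Itgb2 was at 445 to 852 and 565 to 621 CPM (-0.12, adjusted p = 0.6617). Of 39 podosome and actin ring genes, 11 rose (28.2%) and 10 fell (25.6%), shares close to the 23.7% and 26.5% of all genes tested. With total counts 18 rose and 5 fell. Src, the kinase that organizes the ruffled border, went from 12.6, 8.13 and 12.2 CPM to 249, 169 and 230.4 (4.30 ± 0.42), and the Rac activator gene Dock5 rose by 3.20. The focal adhesion gene Zyx was lower in every day 3 library, at 108, 133 and 74.3 CPM against 385, 414 and 369 (-1.89 ± 0.35).

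Of 34 actin, tropomyosin and myosin genes 16 rose and 7 fell, and of 27 tubulin and microtubule genes 13 rose and 5 fell. Myo1d, a membrane-bound myosin, went from 1.81, 1.93 and 11.3 CPM to 226, 209 and 291 (5.58 ± 0.72, or 7.03 without day 0 library 3). The nuclear lamina gene Lmna rose by 2.50 and the beta-tubulin gene Tubb6 by 2.44 (3.08 without day 0 library 3), whereas Coro1a, a coronin of leukocytes, fell by 2.06. Actb, often used as a reference, was at 3169, 1266 and 3164 CPM at day 0 and 3145, 1919.9 and 1437 at day 3, a spread within each day that exceeded the difference between days (-0.22 ± 0.39, adjusted p = 0.6479).

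Genes of mitochondrial energy metabolism mostly rose. All 4 respiratory chain lists had no member that fell: 26 of 36 complex I genes rose, 13 of 14 of complexes II and III with cytochrome c, 11 of 13 of complex IV and 14 of 16 of the ATP synthase, with medians of 0.72, 0.99, 0.80 and 0.92. Atp5b, the catalytic subunit of the ATP synthase, was at 474, 474 and 539.7 CPM at day 0 and 1590.3, 1489 and 1831 at day 3 (1.72 ± 0.16, adjusted p = 6.212e-06). Cyc1, cytochrome c1, went from 63.1, 64.7 and 67.4 CPM to 269.5, 259 and 310.0 (2.10 ± 0.21). Ndufs1, the largest complex I subunit, rose by 1.2. These genes are nuclear. The mitochondrially encoded mt-Co1 was at 11304, 10018 and 7037 CPM and then at 7449, 8094 and 6917 (-0.34 ± 0.33, adjusted p = 0.4046), and mt-Co3 differed by 0.14 (adjusted p = 0.7891). Among 14 regulators of mitochondrial gene expression 5 rose, with 9 under total counts and 2 with the replicate block. Tfam, which packages mitochondrial DNA, was at 23.1 to 24.0 CPM at day 0 and 22.5 to 27.5 at day 3 (0.04 ± 0.16).

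Of 22 genes of pyruvate dehydrogenase and the tricarboxylic acid (TCA) cycle, 19 rose, 13 of them at least 2-fold, and none fell. Idh3a, a subunit of isocitrate dehydrogenase, was at 23.2, 15.6 and 32.9 CPM before RANKL and 167, 146 and 187 after (2.80 ± 0.31). Mdh2, malate dehydrogenase, rose by 2.15. Of 26 genes of glucose transport and glycolysis, 17 rose and 5 fell (median 1.28). Eno1, enolase, rose from 87.4, 61.6 and 128 CPM to 364, 333 and 487 (2.10 ± 0.46), and Pkm, pyruvate kinase, by 0.98. Pdk1, the kinase that holds pyruvate dehydrogenase back, rose by 2.10. The leukocyte hexokinase gene Hk3 fell by 1.70 and the glucose transporter gene Slc2a3 by 1.77. In the pentose phosphate pathway 2 of 7 genes rose and 3 fell. The number that rose was 0 without day 0 library 2 or day 3 library 1, with the replicate block and with only the compared libraries, and 1 without day 0 library 1 or day 3 library 2 or 3. G6pdx, its entry enzyme, went from 539, 556 and 474 CPM to 199.8, 237 and 151 (-1.42 ± 0.17). Fatty acid oxidation was mixed, with 7 of 19 higher and 2 lower, or 13 higher with total counts and 1 lower without day 0 library 2 or day 3 library 3. Cpt1a, which admits fatty acids to mitochondria, fell by 1.57.

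Creatine genes moved with the ATP producers. Of 6 genes of creatine kinases and creatine supply 4 rose and 1 fell, with a median of 1.93, or 1.76 with genes near 0 held at the bound that 3 counts allow. Ckb, the brain-type creatine kinase, went from 192, 187 and 322 CPM to 1078, 1181 and 1320.3 (2.35 ± 0.27). The creatine transporter gene Slc6a8 rose by 1.5. Gatm, the first enzyme of creatine synthesis, was lower by 2.21 (adjusted p = 0.0317), a call lost when any 1 of the 6 libraries was left out (adjusted p from 0.053 to 0.107).

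Genes of amino acid supply and of protein synthesis rose as well. Of 21 amino acid response genes, known targets of ATF4, 12 rose and 3 fell (median 1.55). The transporter genes Slc7a1 and Slc1a5 rose by 3.07 and 2.71. Slc1a5, which carries glutamine, was at 39.7, 44.0 and 43.1 CPM at day 0 and 272, 239.9 and 317 at day 3. Asns, asparagine synthetase, rose by 2.74. Atf3, a stress factor of the same list, fell from 149.5, 50.7 and 93.8 CPM to 23.8, 28.5 and 11.8 (-2.20 ± 0.64), and did not pass without day 0 library 1 (-1.72) or day 3 library 3 (-1.90). Without day 0 library 3 the rises were 3.88 for Slc7a1 and 3.65 for Asns. Serine synthesis and one-carbon metabolism had 10 of 16 higher and 1 lower, with Mthfd2, the mitochondrial folate enzyme, higher by 2.74 (3.35 without day 0 library 3). Of 20 cytosolic aminoacyl-tRNA synthetases 17 rose and none fell (median 0.85), with Gars, which charges glycine tRNA, higher by 1.42.

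Genes of ribosome assembly rose with 1 exception. Of 39 tested genes of the nucleolar assembly line 38 rose, 19 of them at least 2-fold, with a median of 0.98. Dkc1, which modifies ribosomal RNA, was at 8.08, 5.88 and 20.3 CPM at day 0 and 43.2, 41.2 and 47.2 at day 3 (1.94 ± 0.45, or 2.68 without day 0 library 3). Nolc1, a nucleolar scaffold, rose by 1.48. Polr1c, a shared RNA polymerase subunit, did not pass, at 27.5 to 38.8 CPM and 33.1 to 38.8 CPM (0.18, adjusted p = 0.3925). Mitochondrial ribosomal proteins had 38 of 76 higher and 3 lower (61 and 0 with total counts, 0 lower without day 0 library 2 or with the replicate block and 1 lower without day 3 library 1 or 3), and initiation and elongation factors 15 of 30 higher and none lower. Eif4e, the cap-binding factor, rose by 1.62, while Eef1a1, the abundant elongation factor, was at 5669 to 6595 CPM and 5986 to 6439.8 CPM (0.03 ± 0.15).

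The 79 cytosolic ribosomal protein genes themselves had small fold changes, with none lower and a median of 0.29. Of these, 14 rose (17.7%, against 23.7% of all genes tested). That count was 5 without day 0 library 1, 9 without day 3 library 1, 7 without day 3 library 3, 7 with the replicate block and 34 with total counts. Several that rose, Rpl27 among them (1.98 to 8.58 CPM at day 0, 15.8 to 17.4 at day 3), had low counts for a ribosomal protein gene and have near-identical processed copies in the genome, so their reads may have been split. Heat shock proteins and chaperonin subunits rose in 16 of 24 and fell in none (median 0.82). Hspd1, the mitochondrial chaperonin, went from 73.0, 52.0 and 125 CPM to 276, 272 and 319 (1.79 ± 0.30), and Hsp90aa1 rose by 1.65. Of 23 endoplasmic reticulum chaperones and unfolded protein response genes 10 rose and 1 fell, or 6 higher with the replicate block and 3 lower without day 0 library 3. Calr, calreticulin, rose by 0.90 and the stress sensor gene Ern1 fell by 1.11.

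Cholesterol synthesis and uptake had 15 of 27 genes higher and none lower, with a median of 0.48. Lss, lanosterol synthase, was at 27.5, 26.4 and 33.5 CPM and then at 79.4, 69.1 and 65.4 (1.29 ± 0.15), and Hsd17b7, a sterol reductase, rose by 1.48. Cholesterol efflux and other targets of the LXR receptors went the other way, with 10 of 15 lower and 2 higher (median -0.84). Apoe, the lipoprotein that carries cholesterol out of macrophages, was at 18467, 12369 and 18309.8 CPM at day 0 and 2752, 3640.3 and 788 at day 3 (-2.77 ± 0.53, adjusted p = 0.0007706). Day 3 library 3 was the lowest for Apoe, and every day 3 library lay below every day 0 library. The exporter genes Abca1 and Abca9 fell by 1.80 and 3.08 (3.73 for Abca9 without day 3 library 2). Of 30 genes of lipid uptake, storage and synthesis 12 rose and 6 fell, with 3 lower without day 3 library 3. The desaturase genes Scd2 and Scd1 rose by 2.92 and 2.51, and the rise of Scd1 was 3.42 without day 0 library 3.

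Iron handling genes fell in 13 of 23 and rose in 2 (median -0.87), or rose in 5 with total counts. Slc40a1, ferroportin, the iron exporter, went from 856, 1242 and 509 CPM to 62.9, 116 and 33.7 (-3.61 ± 0.59, adjusted p = 0.0002193). The ferritin light chain gene Ftl1 fell by 1.37 and the haemoglobin scavenger gene Cd163 by 4.03. Steap4, a metal reductase, stood out against the list and rose from 0.495, 0.232 and 0.644 CPM to 56.3, 82.8 and 115 (7.50 ± 0.63). Tfrc, the transferrin receptor, was at 1107, 279 and 465 CPM at day 0 and 421, 448 and 511 at day 3 (-0.42 ± 0.73, adjusted p = 0.6444). Of 6 tested NADPH oxidase genes 4 fell and 2 rose, with the number that rose at 0 without day 0 library 2 or day 3 library 2 or 3 and at 1 without each other library. Among those that fell, the catalytic subunit gene Cybb was lower by 2.39 and Ncf1 by 2.00. Antioxidant enzymes were mixed, 9 of 26 higher and 7 lower, with catalase (Cat) lower by 1.77 and the mitochondrial peroxiredoxin gene Prdx3 higher by 0.85.

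**Figure D3:**
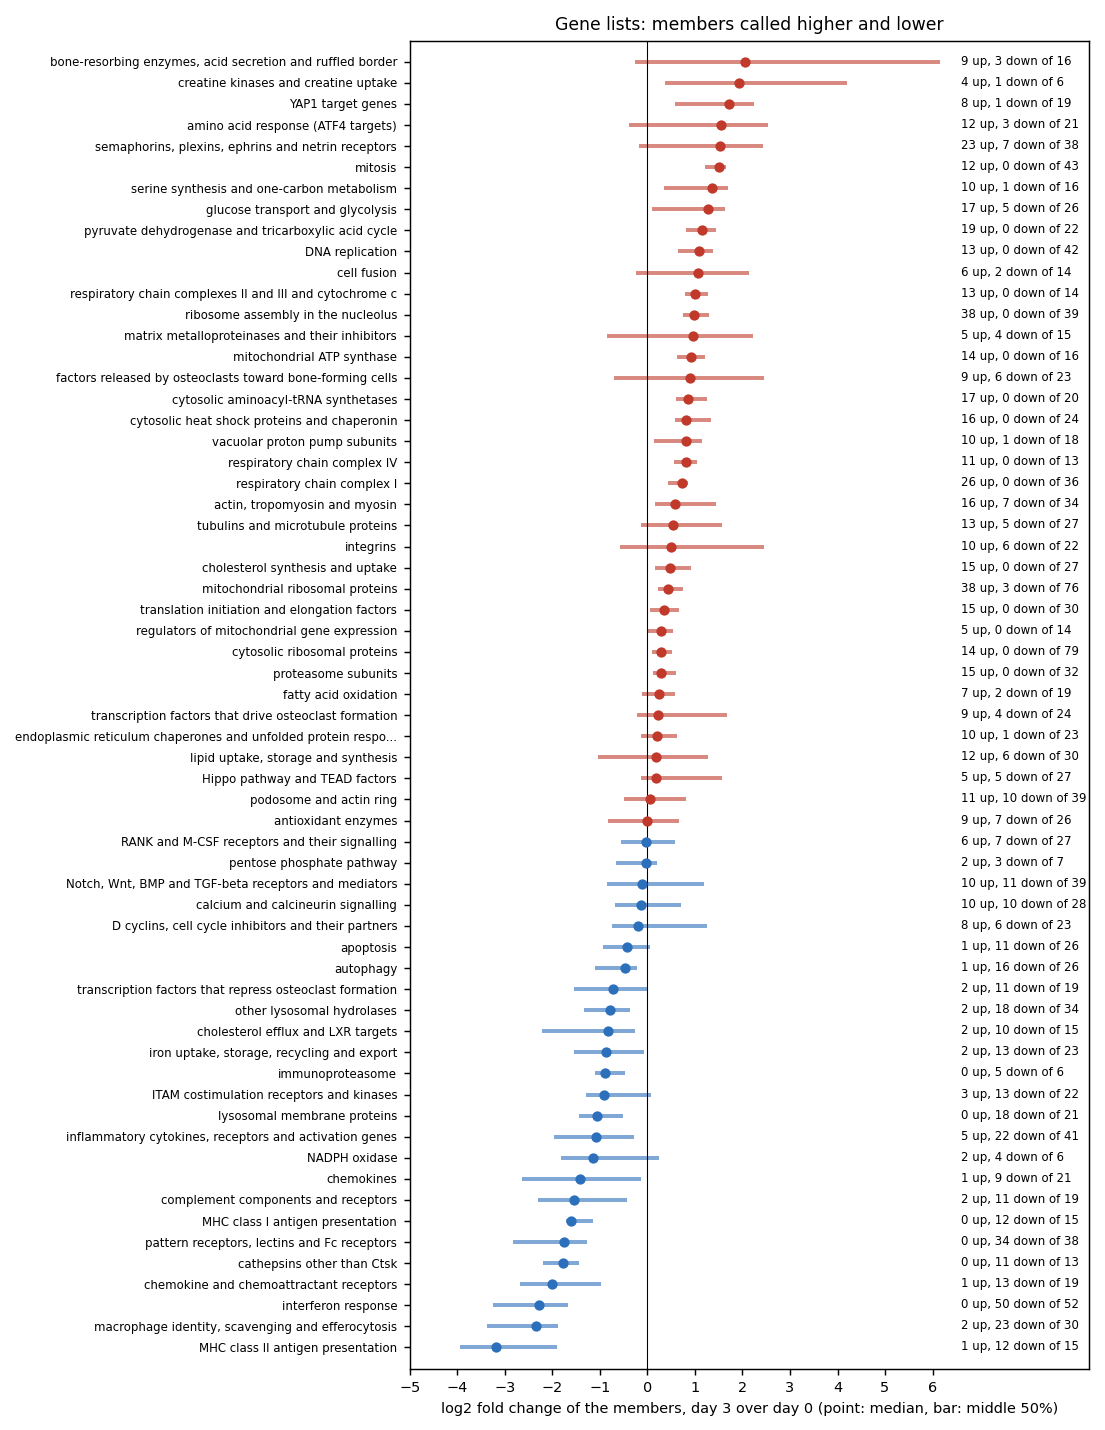
Median (point) and middle 50% (bar) of the log2 fold change, day 3 over day 0, of the tested members of 62 gene lists, ordered by median, with the numbers that rose and fell printed at the right. Interferon response, MHC class II and macrophage lists lie at the bottom with medians from -3.19 to -2.28, and bone resorption lies at the top with 2.05.

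While cathepsin K rose, most genes of the other cathepsins and of the lysosomal membrane fell. Of 13 other cathepsins tested, 11 fell and none rose (median -1.78). Ctsb was at 27485, 20128 and 22858 CPM before RANKL and 5382, 6435 and 3659 after (-2.19 ± 0.36, adjusted p = 0.000264). Ctsd and Ctsc fell by 1.78 and 2.42. Ctsg, a granule protease of neutrophils, was at least 33.4-fold lower, and Ctsz was at 923 to 1515 and 933 to 1103 CPM (-0.21, adjusted p = 0.4941). Of 34 other lysosomal hydrolases 18 fell and 2 rose. Lyz2 was at 46067, 37061 and 19833 CPM and then at 6923, 9043 and 3413 (-2.41 ± 0.46). The rise in this list was led by Arsb, a sulfatase of matrix glycosaminoglycans, which went from 23.2, 17.1 and 41.8 CPM to 445, 448 and 626 (4.21 ± 0.36). The other was the sphingomyelinase gene Smpd1, higher by 0.79.

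Of 21 lysosomal membrane proteins 18 fell and none rose (median -1.07), with Lamp1 lower by 1.98 and Scarb2 by 2.26. Cd63 was at 454 to 549 CPM and 436 to 593 CPM (0.02 ± 0.15, adjusted p = 0.9274). Autophagy genes fell in 16 of 26 and rose in 1, with 9 lower under total counts. The initiating kinase gene Ulk1 went from 145, 203 and 127 CPM to 52.4, 57.7 and 44.0 (-1.62 ± 0.26), and the 1 rise was Wipi1, by 0.84. Genes of constitutive and immune proteasome subunits moved in opposite directions. Constitutive subunits rose in 15 of 32 and fell in none (29 higher with total counts), with Psmb5 higher by 0.97, whereas 5 of 6 immunoproteasome genes fell, Psmb9 by 1.24 and Psme1 by 1.11. The count of 5 was 3 without day 0 library 3, without day 3 library 2, with total counts and with the replicate block.

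The calls of cell cycle genes changed with the library left out. Of 42 DNA replication genes 13 rose (median 1.08), and of 43 mitosis genes 12 rose (median 1.51), with none lower in either list. Mcm6, a subunit of the replicative helicase, was at 50.2, 34.4 and 75.2 CPM at day 0 and 169, 144 and 169 at day 3 (1.59 ± 0.44, adjusted p = 0.008015). Mki67, a marker of cycling cells, was at 87.3, 109 and 106 CPM and then at 233, 161 and 280.2, without overlap (1.16 ± 0.52, adjusted p = 0.07667). The mitosis count was 33 without day 0 library 3, 0 without day 0 library 1, without day 0 library 2 or without day 3 library 3, 3 without day 3 library 1 and 6 without day 3 library 2. The replication count was 31 without day 0 library 3, 4 without day 0 library 1 or 2, 7 without day 3 library 1 and 5 without day 3 library 2 or 3. With the replicate block the counts were 23 for replication and 37 for mitosis, and with DESeq2 20 and 31. The mitosis count was also 31 when only the compared libraries were fitted and 28 with total counts, and it was 28 (with 1 lower) when the style of the titles was a covariate.

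Cell cycle inhibitors and D cyclins split, 8 of 23 higher and 6 lower. The inhibitor genes Cdkn2b and Cdkn2a went from 0.412 to 2.50 CPM and 0.412 to 1.72 CPM at day 0 to 24.5 to 30.5 and 12.3 to 20.8 at day 3 (log2 fold changes of 4.31 and 3.80, with Cdkn2b at 5.12 without day 0 library 3). The inhibitor gene Cdkn1a and the retinoblastoma gene Rb1 fell by 1.07 and 1.55. Apoptosis genes fell in 11 of 26 and rose in 1. The inducers Bbc3 (PUMA) and Bmf fell by 1.59 and 1.58, with Bbc3 at 57.5, 56.2 and 43.3 CPM before and 17.8, 14.6 and 19.6 after. Bcl2, which opposes them, was the gene that rose, by 1.60 (2.63 without day 0 library 3). Its call was lost when only the compared libraries were fitted, with or without the replicate block.

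Nearly every gene of the interferon response fell. Of 52 genes 50 fell, 48 of them at least 2-fold, none rose, and the median was -2.28 (42 fell without day 0 library 3). Among called genes of at least 10 CPM whose days did not overlap, the largest fall was that of Ifit1bl1, of the same interferon-induced family as Ifit2 and Ifit3, which was at 141, 103 and 58.1 CPM at day 0 and 0.826, 0.235 and 0.337 at day 3 (-7.71 ± 1.03, adjusted p = 5.426e-05, or -8.41 without day 3 library 1). Ifit2, whose 2 promoters held no ISRE core, went from 765, 223 and 878 CPM to 16.4, 19.3 and 8.30 (-5.41 ± 0.78). Ifit3, whose promoter held 2 ISRE cores, went from 450.3, 107 and 632 CPM to 21.1, 27.3 and 9.65 (-4.36 ± 0.75). Day 0 library 2 was the lowest of its day for each of the last 2 genes. For Isg15, at 94.97, 35.8 and 242 CPM before and 30.3, 34.3 and 26.3 after, day 0 library 2 lay just above the highest day 3 library (-2.04 ± 0.64, adjusted p = 0.01639). Isg15 did not pass without day 0 library 3 (-1.08, adjusted p = 0.131) or day 3 library 3 (-1.94, adjusted p = 0.0572). The factor Irf7, which amplifies interferon production, fell by 2.90 (1.83 without day 0 library 3) and the antiviral GTPase gene Mx1 by 4.71. Ddx58, the RNA sensor RIG-I, at 144 to 345 and 74.95 to 95.97 CPM, did not pass (-1.51 ± 0.71, adjusted p = 0.08946).

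Antigen presentation genes fell in both classes. Of 15 MHC class II genes 12 fell and 1 rose, with a median of -3.19, or -2.34 with genes near 0 held at their bounds. Cd74, the invariant chain, was at 538, 139 and 315 CPM at day 0 and 20.3, 36.4 and 19.6 at day 3 (-3.70 ± 0.68, adjusted p = 0.0005313). H2-Aa and H2-Ab1, which encode the class II chains, fell by 4.59 and 4.08 (3.40 for H2-Ab1 without day 0 library 1), and Ciita, their transactivator, by 4.01. These genes are also expressed by B cells, whose 10 tested markers summed to 339 to 409 CPM at day 0 and 27.4 to 31.5 at day 3, and by dendritic cells, whose 6 tested markers summed to 7.09 to 9.67 and 5.99 to 9.14 CPM. The part of these cells in the fall was not tested. The rise was Ifi30, a lysosomal reductase, by 0.72, a call lost when any 1 of the 6 libraries was left out (adjusted p from 0.0533 to 0.0779). Of 15 class I genes 12 fell and none rose (median -1.62), with B2m lower by 1.30 and its transactivator Nlrc5 by 1.95. H2-D1 fell by 1.72, though reads may be split among class I paralogs. The peptide transporter gene Tap2 was at 81.2 to 118 and 105 to 117 CPM (0.10, adjusted p = 0.6211).

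Genes of macrophage identity, scavenging and efferocytosis fell in 23 of 30 and rose in 2 (median -2.35, or -2.305 with genes near 0 held at their bounds). The number that rose was 1 without day 0 library 1 or 2 or day 3 library 1 or 2. Adgre1, which encodes the F4/80 antigen, was at 1846, 1831 and 1928 CPM at day 0 and 367, 479.9 and 224 at day 3 (-2.39 ± 0.26, adjusted p = 1.337e-05). Mrc1, the mannose receptor, fell by 2.09, Fcgr1, the high-affinity IgG receptor, by 4.07, and Ccr2, the chemokine receptor of monocytes, fell by 4.83 (-3.91 without day 0 library 3). Cd68 was at 1261 to 1924 CPM and 1070.0 to 1278 CPM (-0.47, adjusted p = 0.1361), and Gpnmb did not pass either (-1.25, adjusted p = 0.07377). In bulk RNA, fewer cells of a type and less RNA per cell cannot be told apart. Complement genes fell in 11 of 19 and rose in 2, or 7 lower with the replicate block. C1qb went from 2958, 2591 and 3075 CPM to 447, 728 and 233 (-2.62 ± 0.36), and C3 differed by -0.9999 without passing.

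Genes of sensing and migration mostly fell. Neutrophils also express many of them, and the 15 tested neutrophil markers summed to 889 to 3899 CPM at day 0 and 47.9 to 86.8 CPM at day 3, all 15 lower. The part of neutrophils in these falls was not tested. Of 38 pattern receptors, lectins and Fc receptors 34 fell and none rose (median -1.75). Tlr9, the sensor of unmethylated DNA, was at 127, 103 and 151 CPM and then at 10.1, 12.9 and 4.49 (-3.79 ± 0.44), and Clec7a, the beta-glucan receptor dectin-1, fell by 3.78 (3.15 without day 0 library 1). Tlr4, the endotoxin receptor, had a log2 fold change of -1.37 that missed the threshold, and Clec12a one of -0.04. Chemokine and chemoattractant receptors fell in 13 of 19. Ccr1, a receptor of osteoclast precursors, was the 1 that rose, from 17.9, 5.26 and 17.4 CPM to 172, 155 and 223 (3.76 ± 0.65, adjusted p = 0.0003567). Chemokines fell in 9 of 21 and rose in 1 (without day 0 library 3, 6 fell and 2 rose, and none rose without day 0 library 2), with Ccl6 at -3.70 on the log2 scale, and Ccl9 at 418 to 606 and 610.0 to 896 CPM (0.60, adjusted p = 0.08041). Of 41 cytokine, receptor and activation genes 22 fell and 5 rose, the latter 3 without day 3 library 3. Il10 fell by 2.81 and the leukotriene pathway gene Alox5ap by 2.17, while Il1rn, the interleukin-1 receptor antagonist, rose by 2.14 (2.95 without day 0 library 3) and the feedback inhibitor gene Socs3 by 1.82.

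Markers of other marrow cells moved with the days. The 19 tested stromal and osteoblast markers summed to 141, 706 and 5923 CPM in day 0 libraries 1, 2 and 3 and to 13436, 17163 and 14540 CPM at day 3. All day 3 sums lay above all day 0 sums, and day 0 library 3 was the highest of its day. Of these markers 15 rose (median 2.55). The count was 18 without day 0 library 3 (median 4.84), 2 when only the compared libraries were fitted, 3 without day 0 library 1, 2 without day 0 library 2, 6, 5 and 3 without day 3 libraries 1, 2 and 3, and 5 with the replicate block. Col1a1, the main bone collagen chain, was at 29.2, 217 and 2011 CPM and then at 5096, 6285 and 5106 (2.87 ± 1.17, adjusted p = 0.05303). Its 3 day 0 values spread widely, with library 3 the highest, and all lay below the day 3 values. Neutrophil markers fell in 15 of 15 (median -5.02), from sums of 3356, 889 and 3899 CPM to 86.8, 47.9 and 66.7. Neutrophil genes Ngp, Camp, Ltf and Cd177 were among the 10 largest falls, with Camp at -5.598 (-4.99 without day 0 library 3). B cell markers fell in 8 of 10, a count of 5 without day 0 library 3, 4 without day 3 library 1 or 2 and 5 without day 3 library 3. With the replicate block only 4 of these markers passed the filter, and 3 of them fell. Ighm, the immunoglobulin mu chain, went from 342, 400.4 and 261 CPM to 9.29, 9.64 and 9.71 (-5.13 ± 0.71). T and NK cell markers summed to 62.1 to 125 CPM at day 0 and 37.8 to 77.2 CPM at day 3, and erythroid markers to 18.1 to 37.6 and 16.5 to 20.8 CPM. Mast cell, basophil and eosinophil markers summed to 5.73 to 41.5 and 3.15 to 4.99 CPM, and megakaryocyte and endothelial markers to 118 to 443 and 41.9 to 47.4 CPM.

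**Figure D4:**
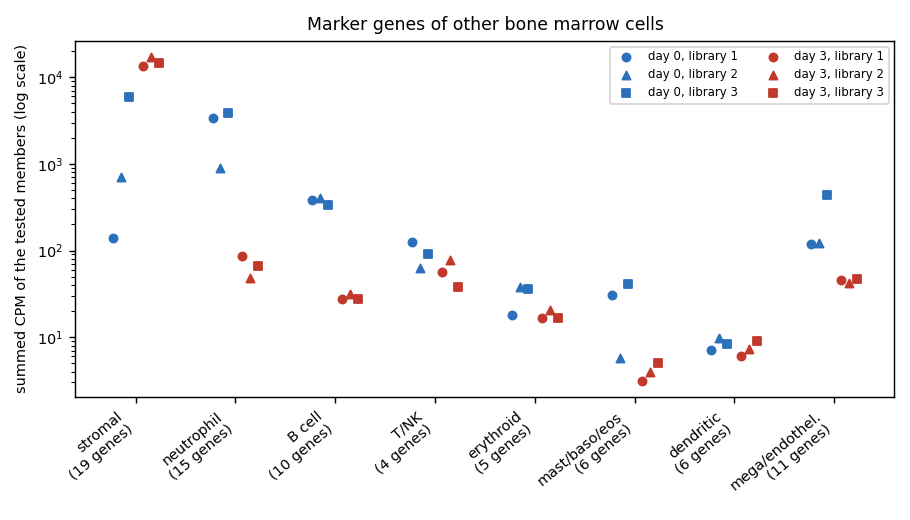
Summed level (CPM, log axis) of the tested markers of 8 other cell types of the marrow in each library labelled WT, with the library shown by its shape and the day by colour. Stromal sums were 141 to 5923 CPM at day 0 and 13436 to 17163 at day 3, and neutrophil sums were 889 to 3899 and 47.9 to 86.8.

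Several lists hold genes that stromal cells express, and their values are given beside the stromal sums of 141, 706 and 5923 CPM at day 0 and 13436 to 17163 CPM at day 3. The part of stromal cells in each was not tested. The series asked how the Hippo effector YAP1 is controlled in osteoclast formation. Yap1 was at 0.824, 3.48 and 24.0 CPM at day 0 and 35.8, 49.3 and 33.9 at day 3, ordered across day 0 libraries as the stromal sums were (2.06 ± 0.82, adjusted p = 0.0484). Yap1 passed without day 0 library 3 (4.21) and lost the call when any other 1 of the 6 libraries was left out (1.56 to 2.17). Of 19 YAP1 target genes 8 rose and 1 fell (median 1.71). The number that rose was 14 without day 0 library 3 (median 3.06), 5 without day 0 library 1, 3 without day 0 library 2, 5 without each of the day 3 libraries, 2 with the replicate block and 1 when only the compared libraries were fitted. The 1 fall was lost without day 0 library 1 or 2 or day 3 library 2 or 3. The YAP1 targets Ctgf and Cyr61 were at 12.2, 51.5 and 335 CPM and at 5.28, 31.4 and 149.9 CPM at day 0, in the same order, and neither passed (1.71 and 2.09, adjusted p = 0.1619 and 0.06233). Of 27 Hippo pathway and TEAD genes 5 rose and 5 fell, with 14 higher without day 0 library 3, 2 without day 0 library 1 or 2 or day 3 library 1 or 2, and 3 without day 3 library 3. Each 5 was 18.5% of the list, against 23.7% higher and 26.5% lower over all genes tested. The number that rose was 0 with the replicate block, 2 when only the compared libraries were fitted and 10 with total counts. The number that fell was 3 without day 0 library 1 or 2 or day 3 library 2 or 3, and 2 with total counts. Trim46, the ubiquitin ligase named in the title of the series, was at 0.247, 0.0774 and 1.22 CPM and then at 2.63, 3.18 and 2.47 (2.38 ± 0.64, adjusted p = 0.007025, and 4.06 without day 0 library 3).

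Guidance receptors and ligands rose in 23 of 38 and fell in 7 (median 1.52, or 2.57 without day 0 library 3, and 14 of 37 tested higher with the replicate block). Plxna4, a semaphorin receptor, did not follow the stromal sums across day 0 libraries. It was at 1.65, 2.01 and 1.79 CPM before RANKL and 111, 85.0 and 158 after (6.01 ± 0.72, adjusted p = 2.621e-05). Sema7a, a membrane-anchored semaphorin, was at 2.80, 8.82 and 21.6 CPM and then at 80.3, 101 and 82.2 (2.98 ± 0.66, or 3.94 without day 0 library 3). Nrp1, a coreceptor, fell from 513, 512 and 557 CPM to 149.5, 209 and 101 (-1.78 ± 0.29). Of 39 Notch, Wnt, BMP and TGF-beta receptors and mediators 10 rose (25.6%) and 11 fell (28.2%), against 23.7% and 26.5% of all genes tested. With total counts 6 fell, and 6 of 35 tested rose when only the compared libraries were fitted. Notch1 and Notch2, the receptors of macrophages, fell by 1.98 and 1.76, and Notch3 rose by 2.89 with day 0 values of 0.659, 1.32 and 6.08 CPM (4.36 without day 0 library 3).

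Of 23 factors that osteoclasts release toward bone-forming cells 9 rose and 6 fell, with 13 higher without day 0 library 3 and 14 with total counts. Pdgfb, which draws vessels and osteoblast precursors, went from 6.59, 5.73 and 12.3 CPM to 157, 132 and 176 (4.24 ± 0.59). Lif rose by 4.19 and Sphk1, which makes sphingosine 1-phosphate, by 3.18. Cthrc1, also made by stromal cells, was at 0, 0.387 and 4.08 CPM and then at 25.03, 29.6 and 24.1 (4.10 ± 1.18). Without day 0 library 3 the rises were 4.95 for Lif, 5.0 for Sphk1 and 7.01 for Cthrc1. Igf1 and Bmp2 fell by 2.16 and 2.53. Of 15 matrix metalloproteinases and inhibitors 5 rose and 4 fell, and 9 rose without day 0 library 3. Mmp2 and Timp3, which stromal cells also express, rose by 3.13 each from day 0 values of 1.24, 8.13 and 39.9 CPM and 7.91, 12.6 and 87.5 CPM (4.96 each without day 0 library 3). Mmp8, a neutrophil collagenase, fell by 4.34.

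The change from day 0 to day 3 was also set beside that in the 6 libraries labelled KO, which share no library with it. In those, 6046 genes passed. For no gene did the change differ between labels at an adjusted p of 0.05 in edgeR's test of the difference, with 769 genes at an unadjusted p under 0.05. DESeq2 called 4 genes, Porcn, Pcdhga1, Cercam and Afg3l2, named here after their values were seen. In edgeR, Cercam changed by 1.65 more on the log2 scale under the KO label (adjusted p = 0.317), Porcn by 1.63 more (adjusted p = 0.706) and Afg3l2 by -0.89 (adjusted p = 0.41). Pcdhga1 changed by 7.82 ± 2.22 more (adjusted p = 0.91), from -1.48 under the WT label to 6.34 under the KO label. Its mean levels were 5.34 and 1.91 CPM under the WT label and 0.197 and 16.6 CPM under the KO label.

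Fold changes of osteoclast genes were given under both labels. Ctsk had a log2 fold change of 7.97 in libraries labelled WT and 7.10 in those labelled KO, a difference of -0.87 (adjusted p = 0.9265). For Mmp9 these were 6.04 and 3.84, for Rufy4 9.47 and 6.24, for Itgb3 3.40 and 1.71, and for Nfatc1 2.53 and 2.17, and none of these differences passed. A p that misses the threshold does not show that the labels respond alike. Medians of lists were 2.05 and 1.76 for bone resorption, 1.16 and 0.81 for the TCA cycle, -2.28 and -2.34 for the interferon response, -3.19 and -1.75 for MHC class II and 1.51 and 0.51 for mitosis. The stromal markers had medians of 2.55 and 3.08 and the neutrophil markers of -5.02 and -3.77.

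**Figure D5:**
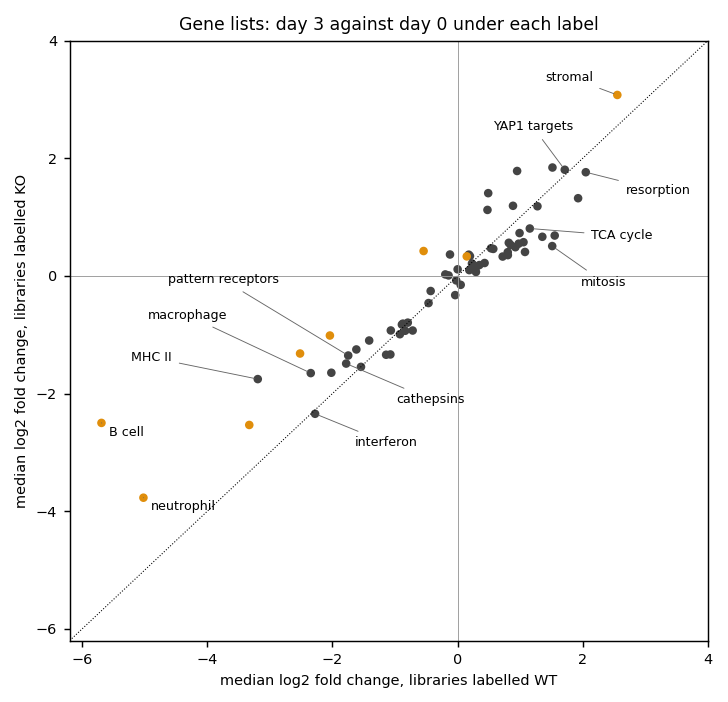
Median log2 fold change, day 3 over day 0, of each of 70 gene lists in the libraries labelled WT (horizontal) and labelled KO (vertical), with marker lists of other cell types in orange and a dotted line where both would be equal. The interferon list lies near the line at -2.28 and -2.34, and MHC class II and B cell markers lie above it.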

How the data were processed

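Total RNA of mouse BMDMs was sequenced after library preparation with a SMARTER mRNA kit, per the labels. The authors deposited 1 table of 18 libraries with read counts and FPKM values per gene; the submitters' notes name GRCm38.p4, mm10 and StringTie, and the aligner, the counting tool and its strand setting are not given in the sources used here. The deposited counts were tested as they stood, and the deposited FPKM values served only to set levels of different genes side by side. All 18 columns of each kind were mapped to samples from their titles, and 0 columns of sample values were left unused. Gene names and positions came from the table.

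Counts were fitted in R 4.3.3 with edgeR 4.0.16 (quasi-likelihood test, trimmed-mean scaling, default filter on low counts) over all 18 libraries as 6 groups of label and day, so that all groups shared 1 estimate of spread (common dispersion 0.0945). Of the 3 WT day 1 libraries, which enter the fit but no comparison here, 2 carry the same number in their titles. Genes were called at a Benjamini-Hochberg adjusted p under 0.05 over 14241 genes, and 13394 of 34745 genes had no count in any library. DESeq2 1.42.0 was an alternative. The comparison, the 70 gene lists and the tests were chosen with earlier results of these data known, and no list was tested as a set. Named were the 10 genes with the largest rise and fall among called genes of at least 10 CPM in the higher day without overlap between days, the 10 with the largest gain and loss of CPM, and in each list preset genes, up to 4 of at least 5 CPM called in each direction by size and up to 3 of the highest that did not pass. Genes with at most 3 counts in every library of a day were given as bounds against 3 counts per library. Promoters and their motifs were read from RefSeq on GRCm38.p6. Alternatives were other scalings, other filters, the fit on the compared libraries alone, that same fit with the library number as a block, title style as a covariate, and each library left out in turn. The fit was tested on simulated counts with known changes.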

Additional observations from a re-analysis of the deposited data

How the results depend on the processing

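With total counts as library sizes, 5153 genes rose and 2221 fell (3087 and 1281 at least 2-fold), in place of 3370 and 3773 (2039 and 2004). This scaling turned the direction of Hadha (0.32 against -0.05 on the log2 scale) and Mrpl24 (0.042 against -0.32), and the title style as a covariate that of mt-Atp8 (0.45 against -0.07). The number of genes called was 5971 when only the compared libraries were fitted and 5724 to 7659 when 1 library was left out, the lowest without day 3 library 3 and the highest without day 0 library 3. Genes that rose at least 2-fold then numbered 1511 to 2847 and those that fell at least 2-fold 1693 to 2004. The replicate block was added to that fit on only the compared libraries. It gave 4751 calls, 2450 of them lower, against the 5971 without the block. Same-numbered libraries of the days had deviations from their group means correlated at 0.111, -0.023 and 0.0514. Differently numbered libraries were correlated at -0.170 to 0.100. With 3 libraries per day these values cannot decide whether the numbers pair the libraries. For the difference between labels, DESeq2 called 4 genes, and 483 had an unadjusted p under 0.05 with a fold above 1.5 or below 0.66, where edgeR called 0. Of 593 genes followed, 398 were called, 316 of them under every alternative and 82 lost under at least 1. The cause of these changes was not tested. The calls of stromal, YAP1 target and cell cycle genes changed when a library of either day was left out, and counts of at most 3 per library limit folds to bounds.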

Other observations

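Grouping the tested genes by the letters of their symbols gave 159 families of at least 10 members, and the values of some follow, chosen after they were seen. The letters before the first digit alone set a family, so its counts may include genes of other kinds than the one named. Some members are also in the lists above, 5 collagen genes among the stromal markers. Collagen chain genes (Col) rose in 21 of 35 and fell in 1 (median log2 fold change 2.63), and the Adamts matrix proteases in 9 of 15 with 1 lower (2.34), beside stromal marker sums of 141 to 5923 CPM at day 0 and 13436 to 17163 CPM at day 3, whose part was not tested. Family counts were not followed under the alternatives. The collagen genes Col1a2, Col3a1 and Col5a1 lost their calls under 8, 8 and 7 of 14 alternatives. Serine protease genes of the Prss family rose in 6 of 11 and fell in 1 (2.26). Hosts of small nucleolar RNAs (Snhg) rose in 6 of 11 (0.81), importers of the mitochondrial inner membrane (Timm) in 9 of 13 (0.72) and nucleoporins (Nup) in 10 of 19 (0.60), with none lower in any of these.

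Among families that fell, the guanylate-binding proteins (Gbp) fell in 9 of 10 (median -2.81) with none higher, 4 of these 10 genes being members of the interferon list. Poly-ADP-ribose polymerases (Parp) fell in 8 of 12 and rose in 1 (-1.10). Families of vesicle traffic differed. Rab GTPases fell in 26 of 64 and rose in 10 (-0.47), their DENN-domain activators (Dennd) fell in 7 of 14 with none higher (-0.63) and sorting nexins (Snx) fell in 14 of 28 and rose in 2 (-0.49). The Sec genes of protein transport rose in 9 of 26 and fell in 2 (0.29), and the Trappc genes of vesicle tethering rose in 0 of 14 and fell in 1 (-0.12). Trim genes, mostly ubiquitin ligases, fell in 23 of 43 and rose in 7 (-0.52), and PHD finger genes (Phf), many of them chromatin readers, fell in 14 of 21 with none higher (-0.51). Over all genes tested, 23.7% rose and 26.5% fell.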
